A study of Homo sapiens with 4 samples.

Results

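Heparan sulfate is a long, sulfated sugar chain that cells attach to a small set of core proteins. The genes described here encode such cores and the enzymes that build or trim the chain. They are the rows of the authors' deposited table whose gene name is SULF1, SULF2, HPSE, EXT1, SDC1, SDC2, SDC3, SDC4, GPC1 or GPC6, which gives 10 genes of 34675. The names were chosen by a rule drawn up with the folds and adjusted p-values of this same table known, so their differences between the lines are a description and are not evidence of anything beyond themselves. RNA came from MDA-MB-231 cells, an established mesenchymal-like triple-negative breast carcinoma line, grown in DMEM with FBS on plastic. The LKB1 line was stably transfected with pcDNA carrying FLAG-tagged wildtype LKB1, the kinase encoded by STK11, and the vector line with empty pcDNA. Each line gave 2 libraries, and the labels do not say whether these were separate cultures or whether a line was a pool or 1 clone. The comparison asks how forced LKB1 expression goes with the cells' transcriptome.

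The table holds 1 comparison and no value per library, so levels are given as read totals over both libraries of a line, recovered from the fold column, and no spread between libraries could be shown. Resolved totals summed to 13075085 reads in the LKB1 line and 12361997 in the vector line, at a depth ratio of 1.04 (LKB1 over vector). Which line is the numerator is not stated in the table. LKB1 over vector was taken since the fold of STK11 exceeded 1, with 2112 reads in the LKB1 line and 1321 in the vector line (log2 0.62 in the authors' deposited table, adjusted p = 0.00105). Every direction below depends on this choice. Of 7 markers of the labelled mesenchymal-like carcinoma cells, all had reads, with summed totals of 75341 in the LKB1 line and 64747 in the vector line. Among them CAV1 (log2 0.64, adjusted p = 0.000647 in the authors' deposited table) and AXL (log2 0.42, adjusted p = 0.0387) were higher in the LKB1 line, and CDH2 fell to 28 reads in the LKB1 line, against 97 in the vector line (log2 -1.84, adjusted p = 9.66e-07). Basal breast markers summed to 4806 reads in the LKB1 line and 2114 in the vector line, of which MYLK alone gave 4486 and 1957. Of these 5 genes, MYLK (log2 1.14, adjusted p = 6e-13 in the authors' deposited table) and TRIM29 (log2 1.68, adjusted p = 2.94e-06) rose, KRT5 was at 0 in both lines and KRT14 was at 0 in the LKB1 line, with 1 read in the vector line. TP63 had 143 and 103 reads in the LKB1 and vector lines and was not called. Luminal breast markers summed to 12852 and 11154 reads in the LKB1 and vector lines, and none of the 7 was called. Most of these reads came from KRT8, with 7334 and 6118 in the LKB1 and vector lines, and KRT18, with 4938 and 4333. In the same order ESR1 had 12 and 8 reads, PGR 0 and 4, and FOXA1 0 and 1. When checked for sample mix-ups, 1 of the 2 groups went against the cell line on its label. Since this falls on a whole group, LKB1 expression and the identity of the cells cannot be told apart in any difference given here, and no result could be given without it. The same limit holds for the STK11 fold on which the direction of the comparison rests. Of the 8 endothelial markers measured, 7 were called lower in the LKB1 line, beside 7.31% of protein-coding genes with at least 40 reads. Their summed totals were 626 reads in the LKB1 line and 2296 in the vector line. ESAM gave 129 and 1197 of these reads in the LKB1 and vector lines. EGFL7, the marker that was not lower, gave 336 and 225 (log2 0.52, not called). None of the 8 was at 0 in either line. Fibroblast markers summed to 581 reads in the LKB1 line and 826 in the vector line, with 3 of 9 called lower, none higher, and DCN and THY1 at 0 in both lines. Among those not called, COL1A2 had 160 reads in the LKB1 line and 97 in the vector line (log2 0.66, adjusted p = 0.0656 in the authors' deposited table). PDGFRB had 163 and 172 reads in the LKB1 and vector lines. Leukocyte markers summed to 397 reads in the LKB1 line and 1043 in the vector line, with 2 of 5 called lower and 1 higher, CD14, which had 144 reads in the LKB1 line and 67 in the vector line (adjusted p = 0.0164 in the authors' deposited table). Their part in the differences below was not tested. In such bulk RNA, fewer cells of a type and less RNA per cell cannot be told apart.

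Syndecans carry heparan sulfate on a protein that spans the membrane, and glypicans on one that is tied to the outer leaflet by a lipid anchor. In the Golgi, EXT1 works with its partner EXT2 to lengthen the chain, and sulfotransferases then modify it. Outside the cell, the endosulfatases SULF1 and SULF2 remove 6-O-sulfates from finished chains, and heparanase, encoded by HPSE, cuts the chains. The sulfation pattern and the core on which a chain sits affect how it holds growth factors, chemokines and morphogens. In breast carcinoma, syndecans and heparanase are known for roles in adhesion and invasion.

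The LKB1 line had hardly any endosulfatase RNA, less syndecan 2, glypican 6 and heparanase RNA, and more glypican 1 RNA than the vector line. By the folds of the authors' deposited table SULF1 was 33.5-fold, SDC2 2.84-fold, GPC6 2.04-fold and HPSE 1.74-fold lower in the LKB1 line, and GPC1 was 2.33-fold higher. SDC1, SDC3, SDC4, EXT1 and SULF2 had adjusted p-values over 0.05. In all, 1 of the 10 genes was called higher and 4 lower at an adjusted p under 0.05, while 2.55% of all genes in the table were called higher and 3.24% lower. That makes 5.79% in either direction, or 13.2% of protein-coding genes with at least 40 reads. As the genes were picked with these calls known, nothing is read from that contrast. At least 40 reads over the 4 libraries were found for 9 of the 10, all but SULF2. The called gene nearest to the threshold was HPSE, with an adjusted p of 0.014 in the authors' deposited table, and the uncalled gene nearest to it was SDC4, with 0.331, so none of the 10 lay close above it. The median log2 fold over the 9 genes with at least 40 reads was -0.26, beside -0.02 over 12459 protein-coding genes with as many reads.

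**Figure D1:**
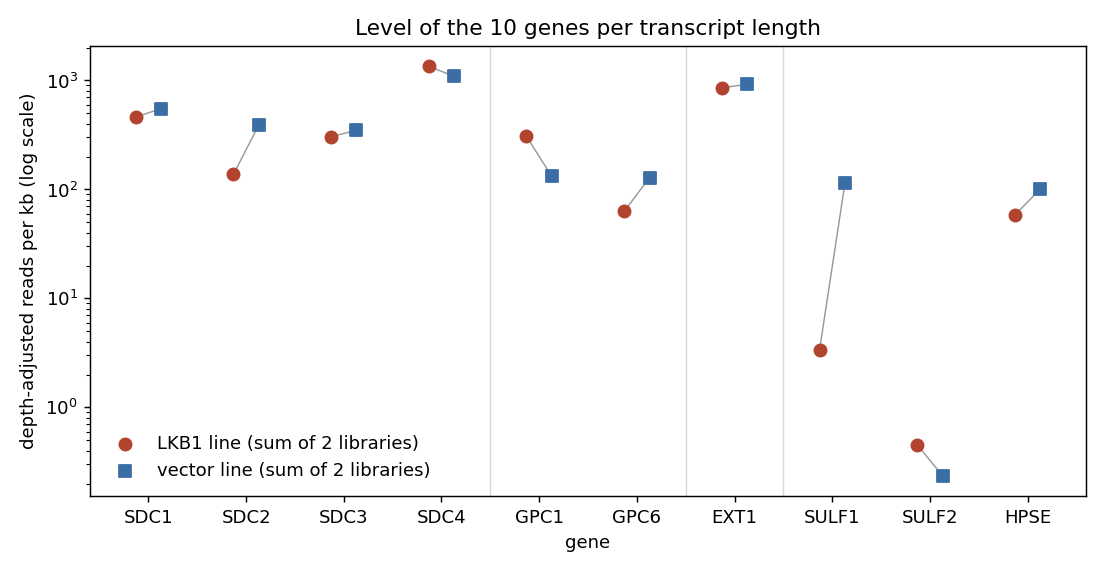
Depth-adjusted reads per kb of transcript (log scale) for each gene, as the sum of 2 libraries in the LKB1 line (circles) and the vector line (squares). SULF1 lies at 3.34 in the LKB1 line and 113 in the vector line, SULF2 rests on 2 reads and 1 read, and SDC4 and EXT1 are the highest of the 10 in both lines.

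Endosulfatases came close to the floor in the LKB1 line. SULF1 (ENSG00000137573.9, chromosome 8, 70378859 to 70573150, plus strand, hg19) had 17 reads in the LKB1 line and 555 in the vector line. In the authors' deposited table its log2 fold was -5.06 (adjusted p = 3.7e-67), the gene of rank 3 by p in the whole table. An approximate 95% interval from the read totals and the variation that the deposited p implies ran from 19.8-fold to 56.4-fold lower. SULF2 (chromosome 20, 46285092 to 46415360, minus strand), the other endosulfatase, had 2 reads in the LKB1 line and 1 read in the vector line, too few for a fold. Per kb of transcript, SULF1 stood at 3.34 depth-adjusted reads in the LKB1 line and 113 in the vector line, and SULF2 at 0.454 and 0.236. Summed over both genes, endosulfatase RNA was 3.80 reads per kb in the LKB1 line and 114 in the vector line. Ranked by level per length, with all protein-coding genes of at least 40 reads, SULF1 stood at percentile 1.39 in the LKB1 line and at percentile 39.5 in the vector line. The 24 protein-coding genes nearest to SULF1 with at least 200 reads had log2 folds of -0.57 to 0.79 with a median of -0.17, and 1 of them was called. The fall of SULF1 was still called after setting the variation between libraries to 0.4 throughout (adjusted p = 3.34e-08), which held for no other of the 10 genes.

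HPSE (ENSG00000173083.10, chromosome 4, 84213614 to 84256306, minus strand) encodes the endoglucuronidase that releases fragments of heparan sulfate and the factors bound to them. It had 187 reads in the LKB1 line and 313 in the vector line, a log2 fold of -0.80 with an adjusted p of 0.014 in the authors' deposited table. The approximate 95% interval was 1.27-fold to 2.38-fold lower. With a variation of 0.2 between libraries assumed in place of the 0.131 that the deposited p implies, the call was lost (adjusted p = 0.286). Per length, the SULF1 level was 0.0575 times that of HPSE in the LKB1 line and 1.12 times that of HPSE in the vector line. The genes around HPSE had a median log2 fold of -0.11, and 6 of 24 were called. HPSE2, a relative that binds heparan sulfate without cutting it, had 4 reads in each line. EXT1 (chromosome 8, 118806729 to 119124092, minus strand), the chain polymerase subunit whose loss causes hereditary exostoses, was the most abundant by reads, with 7383 in the LKB1 line and 7611 in the vector line. Its log2 fold of -0.10 had an adjusted p of 1 in the authors' deposited table, and the approximate 95% interval of the fold was 0.758 to 1.15. EXT1 thus stood 257 times above SULF1 per length in the LKB1 line and 8.11 times above it in the vector line.

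Of the 4 syndecans SDC2 fell, and their summed level per length was close in both lines. It came to 2248 depth-adjusted reads per kb in the LKB1 line and 2382 in the vector line, a ratio of 0.944, or 1.02 with the longest transcripts as lengths. SDC2 (ENSG00000169439.6, chromosome 8, 97505579 to 97624000, plus strand), the syndecan best known from mesenchymal cells, had 207 reads in the LKB1 line and 565 in the vector line. In the authors' deposited table its log2 fold was -1.50 (adjusted p = 2.39e-14), and the approximate 95% interval was 2.22-fold to 3.63-fold lower. Its 24 neighbours had log2 folds of -0.56 to 0.82 with a median of 0.36, and 4 of them were called. SDC1 (chromosome 2, 20400558 to 20425194), the main syndecan of epithelia, had 1508 reads in the LKB1 line and 1735 in the vector line. In the authors' deposited table its log2 fold was -0.26 (adjusted p = 0.575). SDC3 (chromosome 1, 31342314 to 31381608), first known from the nervous system, had 1261 and 1393 reads in the LKB1 and vector lines, with a log2 fold of -0.20 and an adjusted p of 0.794 in the authors' deposited table. Both intervals include equal levels, at 0.680 to 1.03 for the fold of SDC1 and 0.718 to 1.06 for that of SDC3.

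SDC4 (chromosome 20, 43953928 to 43977064, minus strand), the syndecan of focal adhesions, was the highest of the 4 in both lines. It had 3657 reads in the LKB1 line and 2852 in the vector line, with a log2 fold of 0.30 and an adjusted p of 0.331 in the authors' deposited table. The approximate 95% interval of its fold, 1.01 to 1.50, is not adjusted for the number of genes. As a share of syndecan RNA per length, SDC4 made up 59.9% in the LKB1 line and 45.8% in the vector line, and SDC2 made up 6.10% in the LKB1 line and 16.4% in the vector line. SDC4 was 9.81 times as high as SDC2 in the LKB1 line and 2.80 times as high in the vector line. These values depend on the transcript length used, which is the median over a gene's transcripts. With the longest transcript as the length, tried after the data were seen, SDC2 made up 2.61% in the LKB1 line and 7.56% in the vector line, and SDC4 was 25.4 times as high as SDC2 in the LKB1 line and 7.26 times as high in the vector line. By level per length the order was SDC4, SDC1, SDC3, SDC2 in the LKB1 line and SDC4, SDC1, SDC2, SDC3 in the vector line. In the vector line SDC2 and SDC3 were next to each other in this order, at 390 and 349 reads per kb. They changed places when the longest transcript was used as the length (150 and 218 reads per kb).

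**Figure D2:**
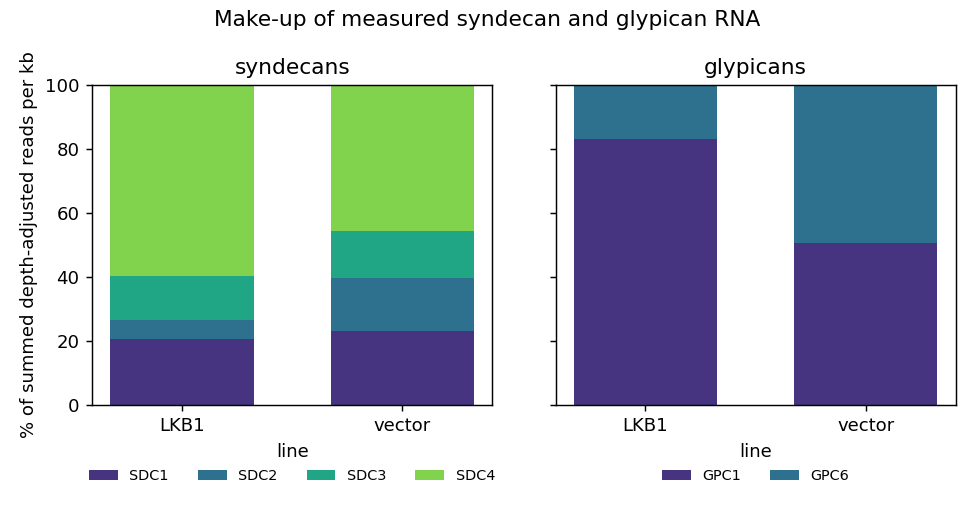
Share of each gene, in percent, in the summed depth-adjusted reads per kb of the 4 syndecans and of the 2 glypicans in the LKB1 and vector lines. SDC2 takes 6.10% in the LKB1 line and 16.4% in the vector line, and GPC1 takes 83.0% in the LKB1 line and 50.6% in the vector line.

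The 2 glypicans went opposite ways. GPC1 (ENSG00000063660.4, chromosome 2, 241375088 to 241407493, plus strand), a glypican that binds fibroblast growth factors through its chains, had 886 reads in the LKB1 line and 365 in the vector line. In the authors' deposited table its log2 fold was 1.22 (adjusted p = 1.85e-11), and the approximate 95% interval was 1.87-fold to 2.92-fold higher. GPC6 (ENSG00000183098.5, chromosome 13, 93879095 to 95055812, plus strand), whose loss causes a recessive short-limb dysplasia, had 237 reads in the LKB1 line and 466 in the vector line. In the authors' deposited table its log2 fold was -1.03 (adjusted p = 5.04e-06), and the approximate 95% interval was 1.58-fold to 2.65-fold lower. With a variation of 0.2 between libraries assumed, GPC1 (adjusted p = 0.00418) and GPC6 (adjusted p = 0.0425) were both still called, GPC6 only just. Per length, GPC1 stood 4.89 times above GPC6 in the LKB1 line, whereas both were about level in the vector line, at a ratio of 1.02 (6.51 times in the LKB1 line and 1.36 in the vector line with the longest transcripts as lengths). No other glypican of the genome took part at a comparable level, since GPC2, GPC3, GPC4 and GPC5 had 1 to 11 reads in the LKB1 line and 0 to 11 in the vector line. The 24 neighbours of GPC1 had log2 folds of -0.78 to 0.44 with a median of -0.04, and 1 of them was called. Those of GPC6, which reached out to 13.7 Mb, had log2 folds of -4.87 to 0.45 with a median of 0.03, and 3 were called. The part of the surrounding region in either difference was not tested.

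The start regions of GPC1 and GPC6 are shown because these glypicans moved apart, and that of HPSE because it fell with GPC6. No window was listed for SULF1, SDC2 or EXT1. Each is the 300-base window of RefSeq from 250 bases before to 50 bases after the annotated start on GRCh38.p14, which is another build than that of the table. It is written in the direction of transcription. The windows are chr2:240435413-240435712 (plus strand), chr13:93226557-93226856 (plus strand) and chr4:83335104-83335403 (minus strand), 5′ to 3′. Capitals mark matches on either strand to any of 4 motifs. The GC box was searched as GGGCGG. The core that ETS factors prefer was searched as CCGGAA. For AP-1 the letters were TGANTCA. The TATA box was taken as TATAAA.
GPC1: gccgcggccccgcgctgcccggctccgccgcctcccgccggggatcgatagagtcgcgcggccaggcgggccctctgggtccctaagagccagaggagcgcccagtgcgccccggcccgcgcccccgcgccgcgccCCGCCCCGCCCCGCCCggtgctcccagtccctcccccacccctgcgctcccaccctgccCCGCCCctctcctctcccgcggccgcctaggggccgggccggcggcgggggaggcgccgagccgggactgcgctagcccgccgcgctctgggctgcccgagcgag
GPC6: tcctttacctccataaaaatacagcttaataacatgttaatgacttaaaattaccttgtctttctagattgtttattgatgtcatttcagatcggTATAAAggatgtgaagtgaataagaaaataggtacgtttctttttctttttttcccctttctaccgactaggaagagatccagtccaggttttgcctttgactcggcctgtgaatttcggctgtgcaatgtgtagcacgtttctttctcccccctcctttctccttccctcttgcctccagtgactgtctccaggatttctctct
HPSE: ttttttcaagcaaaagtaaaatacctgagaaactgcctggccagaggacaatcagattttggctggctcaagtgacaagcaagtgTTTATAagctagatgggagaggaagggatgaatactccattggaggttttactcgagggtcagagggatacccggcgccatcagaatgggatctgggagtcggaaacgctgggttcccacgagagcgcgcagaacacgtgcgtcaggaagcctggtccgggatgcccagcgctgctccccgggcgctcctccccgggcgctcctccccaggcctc
The GPC1 window holds 4 GC boxes and 45 CpG at 83.3% G and C. The GPC6 window holds no GC box and 6 CpG at 40% G and C, with 1 TATAAA. The HPSE window lies between them at 16 CpG and 56.7% G and C, also with 1 TATAAA in reverse. No ETS core or AP-1 match was in these 3 windows, and no match overlapped another motif. Of 27305 RefSeq windows of the same length, 44.6% hold a GC box, 17.6% the ETS core, 7.76% the AP-1 motif and 12.0% TATAAA, with medians of 14 CpG and 58.3% G and C. Among the other genes with a window, SDC3 holds 6 GC boxes and 46 CpG, SDC4 holds 8 and 33, SDC1 holds 1 and 27, and SULF2 holds none and 15. In SDC4 an ETS core match overlaps a GC box. These matches describe letters in a window and say nothing of which factors bind there.

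**Figure D3:**
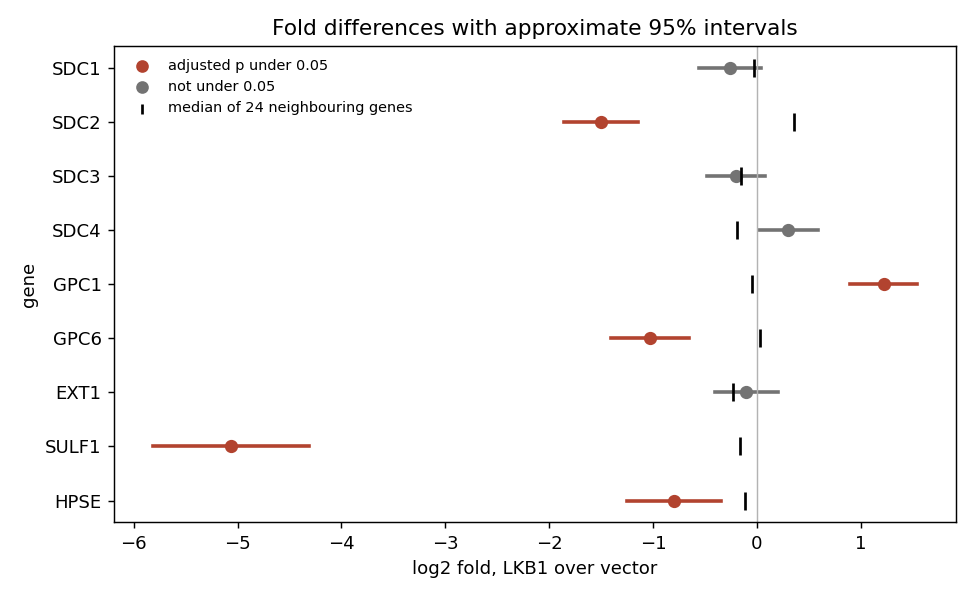
Log2 fold, LKB1 over vector, of the 9 genes with at least 40 reads (points), with approximate 95% intervals (lines) and the median log2 fold of the 24 nearest protein-coding genes with at least 200 reads (ticks). SULF1, SDC2, GPC6 and HPSE lie below 0 and GPC1 above it with intervals clear of 0, and the ticks lie between -0.23 and 0.36.

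By position, SULF1, SDC2 and EXT1 lie on chromosome 8, SULF1 and SDC2 26.9 Mb apart and SDC2 and EXT1 21.2 Mb apart. Of the 66 protein-coding genes with at least 40 reads between SULF1 and SDC2, 13 were called, at log2 folds of -2.99 to 0.83 and a median of 0.04. Between SDC2 and EXT1, 6 of 48 such genes were called, at log2 folds of -1.96 to 0.82. Over all protein-coding genes with at least 40 reads, 13.2% were called. SDC4 and SULF2 lie 2.31 Mb apart on chromosome 20. Genes overlap SULF2, GPC1 and GPC6, and counting is not stated to use strand. Those over GPC1 had at most 3 reads in a line and those over GPC6 at most 4, beside totals of at least 237. NCOA3, with 1205 reads in the LKB1 line and 902 in the vector line, shares 530 bases with SULF2 on the opposite strand.

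Around these genes, 8 lists of the pathway held 95 further genes, of which 75 had at least 40 reads. Of those 75, 5 were called higher and 13 lower, 24% in all beside 13.2% of protein-coding genes with at least 40 reads (5.88% higher and 7.31% lower), at a median log2 fold of 0.01. Set beside the same 13.2%, Golgi modification had 1 called higher and 1 lower of 10 genes with at least 40 reads. Lysosomal breakdown had 1 and 1 of 8, and chondroitin and dermatan sulfate enzymes 1 and 1 of 15. Partners and release had 2 and 2 of 7, and polymerisation 0 and 2 of 3. The lists were drawn up with earlier results of these data known, and nothing particular to them is claimed. With a variation of 0.2 assumed, 7 of the 18 calls were left.

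Genes that start the chain and supply its sulfate did not pass the test. Of 12 such genes 11 had at least 40 reads, at log2 folds of -0.27 to 0.26 and a median of -0.14, and none was called. PAPSS2, which makes the sulfate donor, had 1571 reads in the LKB1 line and 1680 in the vector line (adjusted p = 1 in the authors' deposited table). Among the polymerase relatives EXTL3, which adds the first N-acetylglucosamine, fell to 934 reads in the LKB1 line, against 1268 in the vector line, a log2 fold of -0.50 (adjusted p = 0.0247 in the authors' deposited table). EXTL2, a transferase that acts on the linkage region, fell to 231 reads in the LKB1 line, against 345 in the vector line, a log2 fold of -0.63 (adjusted p = 0.0448 in the authors' deposited table). Both calls were lost with a variation of 0.2 assumed. EXT2, the partner of EXT1, had 1617 and 1338 reads in the LKB1 and vector lines, with a log2 fold of 0.22 and an adjusted p of 0.72 in the authors' deposited table.

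Of 16 genes that modify the chain in the Golgi, 1 rose and 1 fell, and 10 had at least 40 reads. HS6ST3, which adds the 6-O-sulfates that SULF1 removes, had 1 read in the LKB1 line and 61 in the vector line. That is a vector-to-LKB1 ratio of 63.4 with an exact (Clopper-Pearson) 95% counting interval of 11.0 to 2546, and an adjusted p of 8.74e-11 in the authors' deposited table. HS6ST3 was a minor member in both lines. The main 6-O-sulfotransferase gene HS6ST1 had 175 reads per kb in the LKB1 line and 157 in the vector line (adjusted p = 1 in the authors' deposited table), and HS6ST3 had 0.129 and 8.20. HS2ST1, which adds 2-O-sulfates, rose to 1149 reads in the LKB1 line, against 674 in the vector line, a log2 fold of 0.71 (adjusted p = 0.00128 in the authors' deposited table), a call lost with a variation of 0.2 assumed. The N-deacetylase and N-sulfotransferase gene NDST1 had 3892 and 3600 reads in the LKB1 and vector lines, with an adjusted p of 1 in the authors' deposited table. Among the 3-O-sulfotransferases, HS3ST3B1, HS3ST5 and HS3ST1 had 984, 314 and 321 reads in the LKB1 line and 724, 356 and 292 in the vector line, and none was called. HS6ST1 and the 3-O-sulfotransferases were chosen after their values were seen.

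HS6ST3 (chromosome 13, 96743093 to 97485671, plus strand, hg19) begins 1.69 Mb beyond the end of GPC6. Both were lower in the LKB1 line. Of the 7 protein-coding genes with at least 40 reads between them 1 was called, and those genes had log2 folds of -4.12 to 0.34 with a median of 0.09. This position was noticed after the values were seen.

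None of 10 other carriers of heparan sulfate was called. HSPG2, which encodes the basement membrane proteoglycan perlecan, had 11780 reads in the LKB1 line and 11559 in the vector line (log2 -0.03 and adjusted p = 1 in the authors' deposited table). Together, the 6 carriers of this list with at least 40 reads had log2 folds of -0.03 to 0.31. Of 8 enzymes of lysosomal breakdown, 1 rose and 1 fell. IDS, the iduronate sulfatase missing in Hunter syndrome, fell to 1154 reads in the LKB1 line, against 1946 in the vector line, a log2 fold of -0.81 (adjusted p = 1.2e-05 in the authors' deposited table). HGSNAT, an acetyltransferase of the same breakdown, rose by 0.50 on the log2 scale (adjusted p = 0.0341 in the authors' deposited table), with 952 reads in the LKB1 line and 649 in the vector line. Neither call remained with a variation of 0.2 assumed.

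Proteins that bind or cut syndecans and glypicans went both ways, 2 of 10 higher and 2 lower. CASK, a scaffold that binds syndecan tails, rose to 3706 reads in the LKB1 line, against 1767 in the vector line, a log2 fold of 1.01 (adjusted p = 2.12e-10 in the authors' deposited table). Genes around CASK on the X chromosome had a median log2 fold of 0.79. GIPC1, another such scaffold, fell to 2066 reads in the LKB1 line, against 3093 in the vector line, a log2 fold of -0.64 (adjusted p = 0.000321 in the authors' deposited table), among chromosome 19 neighbours with a median of -0.54. The sheddase gene ADAM10 had a log2 fold of 0.54 (adjusted p = 0.00529) and the membrane metalloprotease gene MMP14 one of -0.67 (adjusted p = 5.57e-05) in the authors' deposited table. SDCBP, which encodes the syndecan adaptor syntenin, was at -0.16 and did not pass. With a variation of 0.2 assumed, CASK alone of these kept its call. Among 16 enzymes of chondroitin and dermatan sulfate, the other main kind of chain on such cores, the sulfotransferase gene CHST15 rose by 0.74 on the log2 scale (adjusted p = 5.26e-05), and the synthase gene CHSY3 fell to 36 reads in the LKB1 line, against 128 in the vector line (log2 -1.88, adjusted p = 2.74e-08 in the authors' deposited table). None of the other 14 passed, among them CHST11 at 0.07. CHSY3 kept its call with a variation of 0.2 assumed and CHST15 did not.

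Ligands that heparan sulfate holds were lower where they differed. Of 19, 15 had at least 40 reads, 6 fell and none rose, at a median log2 fold of -0.67, beside 7.31% of protein-coding genes with at least 40 reads called lower and 5.88% called higher. The chemokine gene CXCL8 (IL8 in the table) fell to 306 reads in the LKB1 line, against 1040 in the vector line, a log2 fold of -1.82 (adjusted p = 4.25e-22 in the authors' deposited table). SLIT2, a guidance factor that needs heparan sulfate to act on its receptors, fell to 344 reads in the LKB1 line, against 993 in the vector line, a log2 fold of -1.58 (adjusted p = 6.1e-18 in the authors' deposited table). FGF2, a growth factor whose receptor complex includes heparan sulfate, had 3 reads in the LKB1 line and 58 in the vector line. The vector-to-LKB1 ratio was 20.1 with a 95% counting interval of 6.55 to 100 and an adjusted p of 3.14e-10 in the authors' deposited table. LPL, a lipase anchored by heparan sulfate, had 3 and 50 reads in the LKB1 and vector lines, a ratio of 17.3 with an interval of 5.60 to 86.9 (adjusted p = 4.54e-07 in the authors' deposited table). These 4 kept their calls with a variation of 0.2 assumed, and the other 2 of the 6 did not. THBS1 was at -0.20 with an adjusted p of 0.772 in the authors' deposited table, and its reads could not be resolved within the range searched. Most endothelial markers and the fibroblast and leukocyte totals given above were lower in the LKB1 line, as were SULF1, SDC2, GPC6, HPSE, HS6ST3 and these ligands. CD14, MYLK and TRIM29 were called higher, as was GPC1, and COL1A2 was higher without being called. The part of these markers was not tested.

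**Figure D4:**
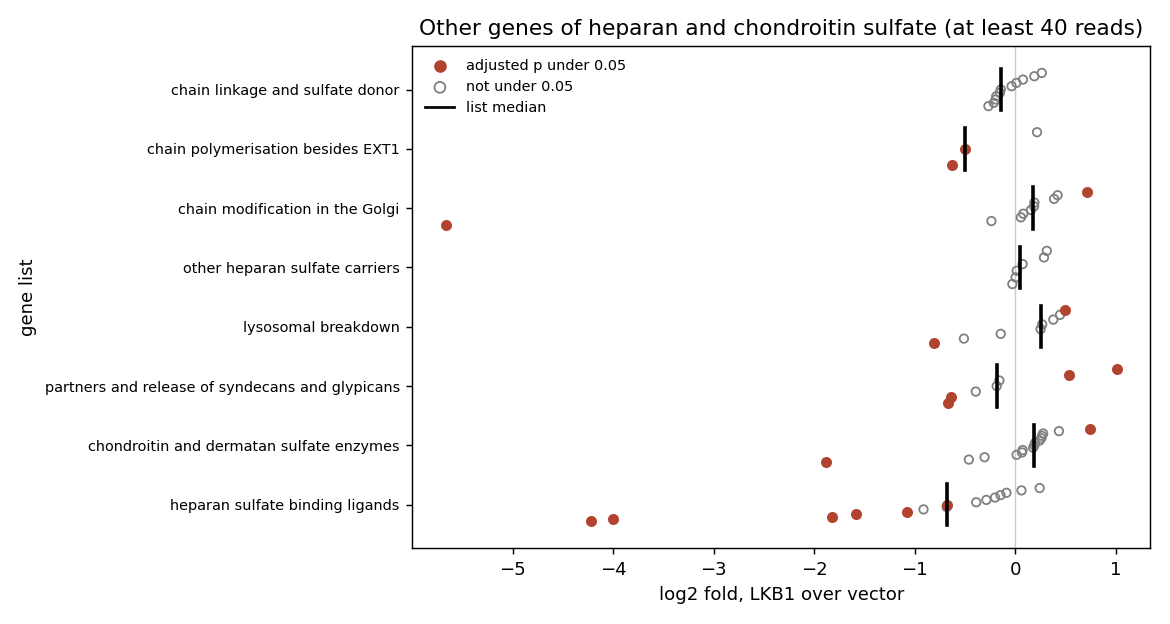
Log2 fold, LKB1 over vector, of the pathway genes with at least 40 reads in each of 8 lists, filled where the authors' deposited table has an adjusted p under 0.05, with the list median as a bar. HS6ST3 is the lowest point, at a fitted value of -5.67 that rests on 1 read in the LKB1 line, and 6 of 15 ligands are filled, all below 0.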

How the data were processed

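RNA-seq of 4 libraries, 2 of the LKB1 line and 2 of the vector line, was used as the authors' deposited table of 1 comparison. Per the file headers each gene has coordinates, a fold, which is a ratio of the lines, the log2 of that fold, and p-values before and after adjustment, all deposited by the authors. Tools listed in the submitters' processing notes, with no role, are edgeR 2.6.0, TopHat2 2.0.6 and CASAVA 1.8.2, and the build is hg19. The counter, its use of strand, the annotation and filters: not given in the sources used here. The deposited adjusted p-values equal a Benjamini-Hochberg adjustment over all 34675 genes within 1.89e-06.

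Read totals per line were recovered as the whole numbers that, with priors of 0.254868 (LKB1) and 0.245132 (vector) reads, give the deposited log2 fold within 6e-10. The match with the fewest reads up to 30000 was taken. For GPC1 and SDC4, 2 pairs of totals matched, and their reads, intervals, shares and ratios rest on the smaller pair. This resolved 99.8% of 28242 genes with reads. With slightly altered priors, 2 to 5 of 1000 genes below 3000 reads matched. The totals of the 10 genes carry 0.0298 expected false matches in all, 0.0234 of them for EXT1. The variation between libraries implied by a deposited p was solved from an exact negative binomial test. Its median was 0.105 over 6305 protein-coding genes with at least 200 reads, after leaving out those with very many reads or a large deposited p. Over the members that could be solved it was 0.0905 to 0.131. Approximate 95% intervals of a fold combine counting error with it. Those of ratios with 1 to 3 reads cover counting error only. The solved variation was similar across the 6305 genes, with quartiles of 0.0998 and 0.116. Whether the deposited test took each gene's own spread is not stated, so the intervals of a fold may not measure that spread. Lengths are the median over protein-coding GENCODE 29 basic transcripts, matched by Ensembl identifier. Reads per kb of the LKB1 line were divided by the depth ratio.

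A gene was called at a deposited adjusted p under 0.05. The members and lists were chosen with earlier results of these data known. Named were all 10 members and, from each list, at most 4 called genes with the smallest p and the uncalled gene with the most reads; genes outside this rule are GPC2 to GPC5, HPSE2, NCOA3, HS6ST1, HS3ST1, HS3ST3B1, HS3ST5 and the cell type markers named in the text, chosen after their values were seen. One gene that the rule names is not reported here. Calculations used Python 3.11.15, NumPy 2.4.6 and SciPy 1.17.1 and were tested on simulated data. Since separate cultures are not stated, p-values reflect no more than library-to-library spread, possibly technical.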

Additional observations from a re-analysis of the deposited data

How the results depend on the processing

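Of the 10 members, 5 were called in the authors' deposited table. This was also 5 when adjusting over genes with at least 40 reads, and 4, without HPSE, both at a variation of 0.2 between libraries and when a fold of at least 2 was also required. With 0.4 assumed it was 1, SULF1. The 5 calls kept their direction under subtraction of the median log2 fold of protein-coding genes with at least 200 reads, which was -0.01, a prior of 4 reads and subtraction of the neighbours' median. Over all genes, 2007 calls became 869 at 0.2, 266 at 0.4 and 1032 with the fold of at least 2. Over the pathway lists 18 became 7, 3 and 8 in the same order. The polymerisation and lysosomal lists each held 0 of their 2 calls under these 3 settings. Golgi modification held 1 of 2 under each. Partners and release held 1 of 4 at 0.2, 0 at 0.4 and 1 with the fold. Chondroitin and dermatan sulfate enzymes held 1, 0 and 1 of 2, and ligands 2 of 6 at 0.4. The cause of these losses was not tested beyond the larger variation or fold that each setting imposes. No paired analysis was possible because the table holds no values per library, and for the same reason no replicate could be left out. A shared batch or a doubtful library could not be examined, and genes under about 40 reads are limited by depth.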
